A study of Drosophila melanogaster with 3 samples.

Results

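Cuticle protein (Cpr) genes encode structural proteins of the insect exoskeleton, most of which carry the chitin-binding Rebers and Riddiford (RR) domain. The choice was made with earlier results of these data known, and the members were taken by name. They are the protein-coding genes of Drosophila melanogaster build dm6 whose symbol is Cpr followed by a digit. There were 70 of them among 13945 protein-coding genes on chromosomes X and 4 and the arms of chromosomes 2 and 3. The data are chromatin immunoprecipitation sequencing (ChIP-seq) peak lists for Pointed, an ETS-domain transcription factor. The material was whole embryos of mixed sex aged 0 to 24 h, in 1 group of 3 biological replicates and with no second genotype or treatment. The flies, strain pnt-MiMIC-GFP, carry an eGFP exon within an intron of pnt, so the protein pulled down with anti-GFP is a fusion made from the pnt locus (the antibody field of the labels reads pnt). All 3 replicates came from this single line. In whole embryos a peak's signal is an average over all cells and ages, so strong binding in few cells and weak binding in many cannot be told apart.

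The larval cuticle is laid down by epidermis, trachea and the ends of the gut late in embryogenesis, as chitin fibres in a matrix of such proteins. Different Cpr genes serve hard and soft cuticles and successive moults, and many lie in tandem clusters that arose by duplication. Pointed is switched on by Ras-MAPK signalling, often from the EGF receptor, with known roles in the trachea, glia, eye and epidermis.

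The lists hold peaks and not reads, so the sequencing depth is unknown, and a gene without a peak is one with no listed peak at that depth. The optimal list, the authors' thresholded list from all 3 replicates, held 3646 peaks with signal of at least 93.2 in the authors' units. The pooled relaxed list, which also includes background regions, held 23148. The 19502 of these that are not in the optimal list are called weaker pooled peaks here, and their signal ran from 33.2 to 93.2. A gene was counted as near a peak when a summit fell inside the gene or at most 2 kb beyond either end. The nearest transcription start site (TSS) is that of protein-coding transcripts.

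Few Cpr genes were near an optimal peak. There were 3 of 70, Cpr31A, Cpr73D and Cpr76Ba, or 4.29% (95% Clopper-Pearson interval 0.893 to 12, counting error only), while 29.4% of all protein-coding genes were. No Cpr gene had an optimal summit within 500 bp of its own TSS, against 15.8% of all genes. The other 67 members had no optimal summit within 2 kb. Neighbouring members can share a peak, so the genes are not independent counts and the interval may be too narrow.

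Cpr genes are short, and short genes were less often near a peak, so the shares were also read within classes of span. The median span was 1094 bp for Cpr genes and 2166 bp for all genes. Of genes under 1 kb, 1 of 33 Cpr genes (Cpr76Ba, 3.03%) was near an optimal peak, against 14.7% of all genes of that size. Of genes of 1 to 2 kb it was 1 of 20 (Cpr31A, 5%), against 23.3%. In the class of 2 to 5 kb none of 10 Cpr genes, among them Cpr51A, Cpr56F and Cpr97Ea, was near one, against 30.9%. Of genes of 5 kb and over it was 1 of 7 (Cpr73D, 14.3%), against 45.8%. In all 4 classes the Cpr share was below that of all genes, but within each class its interval is wide and reaches the share of all genes except in the class of 2 to 5 kb, where it stops at 30.8%.

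**Figure D1:**
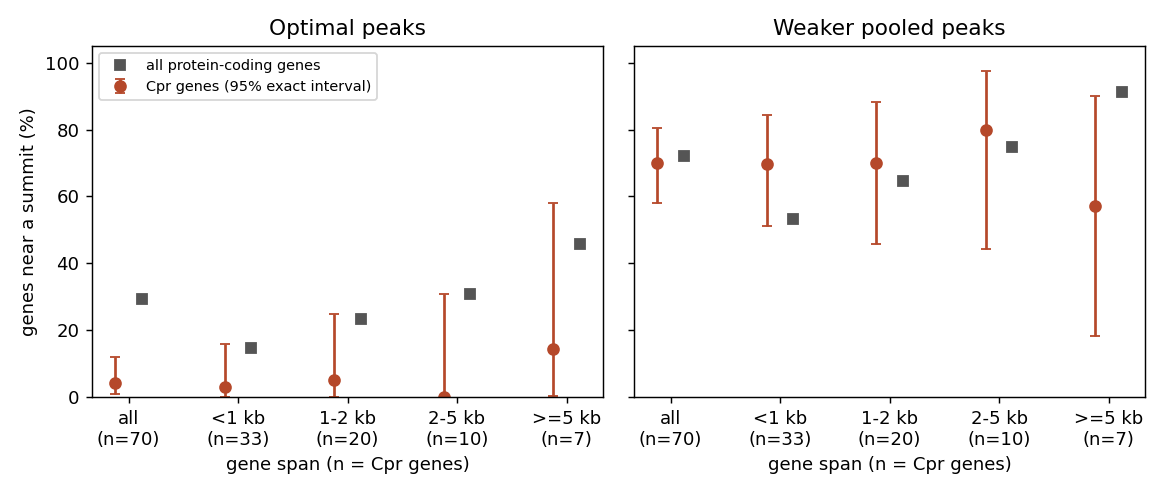
Percentage of genes near a summit by class of gene span, for optimal peaks (left) and weaker pooled peaks (right). Circles are Cpr genes with 95% exact intervals and squares are all protein-coding genes. The optimal share of Cpr genes is 4.29% against 29.4%, while the weaker share is 70.0% against 72.0%.

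The 3 optimal peaks near members lay at different kinds of place, and at none of them was the summit in the promoter of the Cpr gene. The strongest, of signal 353.1 and rank 417 of 3646, was between genes at chr3L:19516633-19516808. Its summit was 824 bp past the 3' end of Cpr76Ba (FBgn0036878, chr3L:19517552-19518332, minus strand), and 1604 bp from that gene's TSS, which was the nearest TSS. Its ranks were 351, 930 and 348 in the lists of replicates 1, 2 and 3, with signals of 140.1, 78.8 and 126.9. It therefore stood among the 1000 strongest peaks of each replicate.

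The peak near Cpr31A (FBgn0053302, chr2L:10054213-10055935, plus strand) had a signal of 302.6 and rank 573 (chr2L:10057343-10057522). Its summit was 1517 bp past the 3' end of Cpr31A, inside an intron of the next gene, Pen, which encodes an importin alpha. The nearest TSS was that of Pen, at 552 bp, while the TSS of Cpr31A was 3239 bp away. It ranked 521, 448 and 1707 in the 3 replicates, with signals of 113.8, 120.1 and 57.0, so replicate 3 placed it lowest.

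The third peak was close to the end of the optimal list, with signal 94.5 and rank 3564 (chr3L:16956748-16957131). Its summit lay in an intron of Cpr73D (FBgn0036680, chr3L:16939100-16957689, minus strand), 749 bp from that gene's TSS. It also lay in an intron of Ogdh, a gene of the citric acid cycle enzyme oxoglutarate dehydrogenase, which overlaps Cpr73D on the other strand. An Ogdh TSS was nearest, at 499 bp. Replicate 2 ranked this peak 1535, whereas replicates 1 and 3 ranked it 6395 and 14138, outside their 3646 strongest. So 1 of the 3 peaks had a Cpr TSS as its nearest and the others had that of a neighbour.

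The sequences of these 3 peaks are shown because they are the optimal peaks in question. The other is that between Cpr65Eb and Cpr65Ec, described below. They are the plus strand of build dm6, read from the RefSeq Release 6 genome, and capitals mark the GGAA core that ETS domains recognise, written TTCC where it is on the minus strand. The peaks of 384 bp are given by 300 bases around the summit.
Cpr76Ba peak, chr3L:19516633-19516808: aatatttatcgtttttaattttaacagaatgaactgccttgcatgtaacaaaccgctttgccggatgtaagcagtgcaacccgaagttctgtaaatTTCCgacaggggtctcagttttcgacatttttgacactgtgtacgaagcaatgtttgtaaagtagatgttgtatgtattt
Cpr31A peak, chr2L:10057343-10057522: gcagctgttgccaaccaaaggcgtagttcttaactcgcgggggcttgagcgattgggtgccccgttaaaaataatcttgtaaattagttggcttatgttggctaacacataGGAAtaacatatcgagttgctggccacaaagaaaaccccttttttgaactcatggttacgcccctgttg
Cpr73D peak, chr3L:16956790-16957089: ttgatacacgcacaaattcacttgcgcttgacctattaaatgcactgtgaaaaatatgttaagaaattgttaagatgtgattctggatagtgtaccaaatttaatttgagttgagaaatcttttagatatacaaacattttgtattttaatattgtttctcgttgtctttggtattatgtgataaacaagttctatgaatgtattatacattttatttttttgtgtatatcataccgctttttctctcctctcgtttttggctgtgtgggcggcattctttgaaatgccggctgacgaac
Cpr65Eb peak, chr3L:7090764-7091063: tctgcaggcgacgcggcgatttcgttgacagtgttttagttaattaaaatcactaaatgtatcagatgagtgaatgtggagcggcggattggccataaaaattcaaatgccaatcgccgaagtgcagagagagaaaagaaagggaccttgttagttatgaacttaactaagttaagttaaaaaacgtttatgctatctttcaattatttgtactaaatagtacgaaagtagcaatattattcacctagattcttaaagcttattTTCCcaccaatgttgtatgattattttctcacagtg

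In these stretches, which differ in length, GGAA occurred once each at the Cpr76Ba, Cpr31A and Cpr65Eb peaks and not at all at the Cpr73D peak. Within 100 bases of the summit it occurred 1 time at the Cpr76Ba peak, 2 times at the Cpr31A peak and 0 times at the Cpr73D peak. The Cpr65Eb peak was not counted in that window. Within 100 bases of all optimal summits, 75.5% of windows held GGAA on either strand, so a match is common. The longer ETS words searched were CAGGAAA together with its variant CAGGAAG, and likewise the word CCGGAAA together with its variant CCGGAAG. On both strands, these were in none of the 3 windows near members and in 5.62% of all optimal windows. The GAGA word GAGAGA was in 1 of the 3, that at Cpr73D, and in 11% of all.

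**Figure D2:**
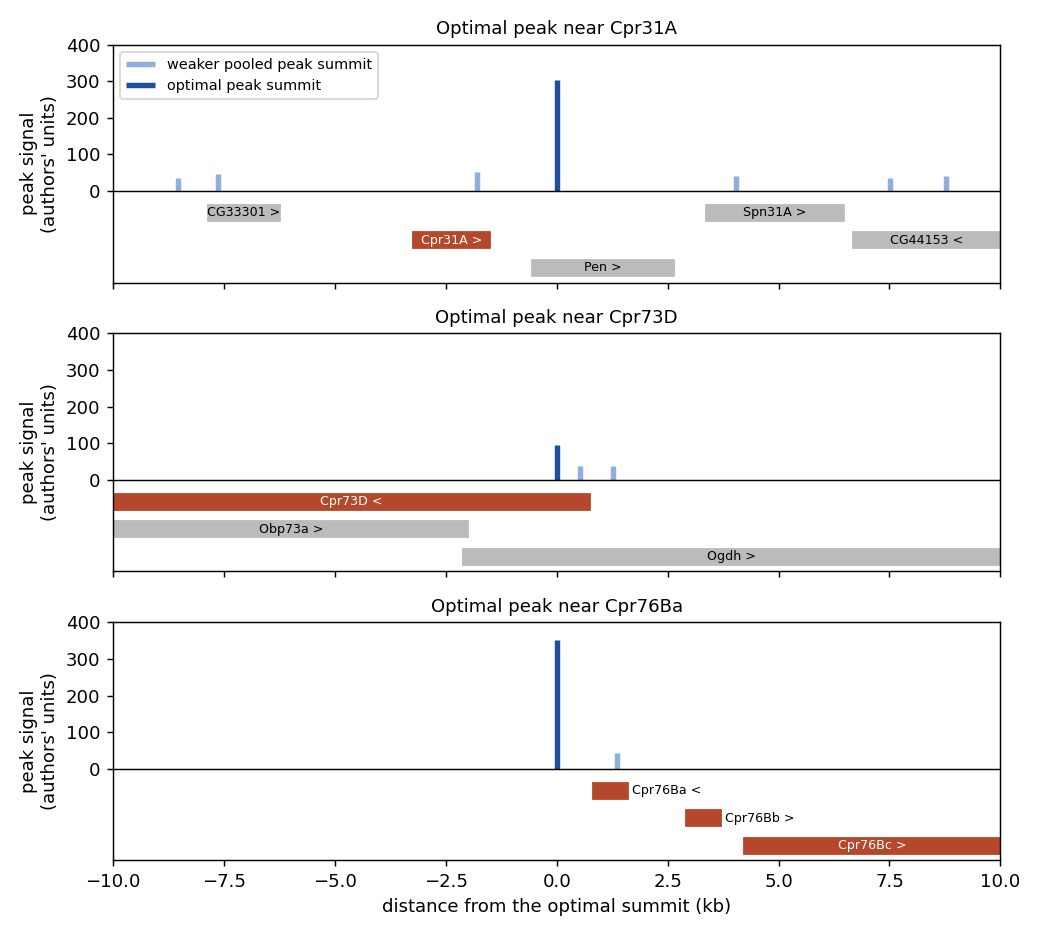
Peak signal in the authors' units (vertical axis) against distance from the optimal summit (kb) for the 3 optimal peaks near Cpr genes, with Cpr genes in red, other protein-coding genes in grey and arrowheads for strand. The peaks of 353.1 and 302.6 lie past the 3' ends of Cpr76Ba and Cpr31A, and that of 94.5 lies where Cpr73D and Ogdh overlap.

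The members just beyond 2 kb were few. Cpr66Cb was 2019 bp from an optimal summit of signal 125.5, which was 171 bp from the TSS of CG7083. Cpr65Eb and Cpr65Ec were 2127 and 2290 bp from a shared summit of signal 140.0 that lies between them (chr3L:7090722-7091105, rank 2057). Its nearest TSS was that of Cpr65Eb. Cpr76Bb and Cpr76Bc were 2921 and 4217 bp from the peak at Cpr76Ba. Cpr78Cc was 3393 bp from the peak at CG11309 (signal 625.5, rank 119), which was TSS-proximal there, at 94 bp. Cpr65Ea, Cpr67B and Cpr67Fb were the others within 5 kb. The peak by Cpr67B was 35 bp from the TSS of CG4022, and that by Cpr67Fb was 278 bp from that of Aps.

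When each optimal peak was given to the gene of its nearest TSS alone, 3 Cpr genes again had a peak, Cpr65Eb, Cpr76Ba and Cpr92A, against 18.5% of all genes. Cpr76Ba is the one member common to both rules. The peak given to Cpr92A (signal 250.3, rank 815) was 13906 bp away, in an intron of the dystrophin gene Dys, and a snoRNA gene started 1147 bp from it. It is therefore a Cpr peak by that rule rather than by nearness.

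Optimal peaks were also farther from Cpr genes in general. The median distance from the span to the nearest optimal summit was 16945 bp for the 70 Cpr genes and 7377 bp for all genes. Within 10 kb, 28.6% of Cpr genes and 56.7% of all genes had an optimal summit. Within 20 kb it was 60.0% and 73.4%. No Cpr gene was more than 44239 bp from one, so that within 50 kb the order turned, with 100% against 90.6%. Counted over sequence in place of genes, the 0.370 Mb in and within 2 kb of Cpr genes held 3 optimal summits, or 8.10 per Mb, against 32.0 per Mb in and around all protein-coding genes. Weaker pooled summits were about as dense there, at 178 per Mb against 162.

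**Figure D3:**
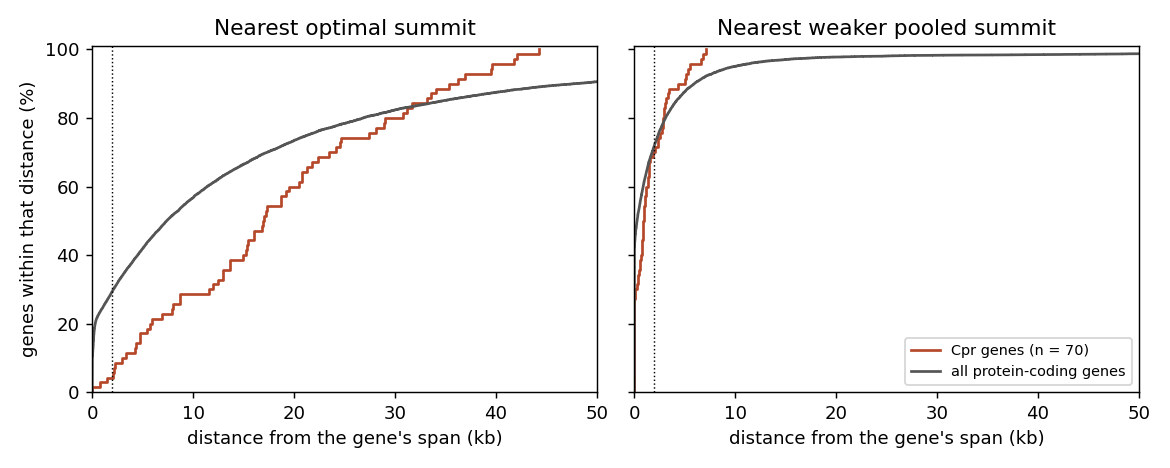
Percentage of genes (vertical axis) with a summit within the distance from the gene's span on the horizontal axis (kb), for optimal (left) and weaker pooled (right) peaks, with Cpr genes in red and all protein-coding genes in grey. A dotted line marks 2 kb. The Cpr curve is below that of all genes for optimal peaks at 20 kb (60.0% against 73.4%) and above it at 50 kb (100% against 90.6%).

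Cpr genes are spread unevenly over the genome. Arm 3L holds 35, 2R 21, 2L 5, 3R 5 and X 4, and chromosome 4 none. Members with an optimal peak nearby were on 3L (Cpr73D and Cpr76Ba) and 2L (Cpr31A). Joining neighbours whose spans are at most 10 kb apart gave 13 clusters of at least 2 genes, with 49 members in all, and 21 single genes.

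Of the 13 clusters 1 had a member near an optimal peak, that of Cpr76Ba to Cpr76Bd (4 genes, 20.7 kb). Of the single genes 2 of 21 did, Cpr31A and Cpr73D. The largest clusters, Cpr47Ea to Cpr47Eg and Cpr65Au to Cpr65Az, hold 7 members each, over 26.7 and 30.3 kb, and none of them was near an optimal peak. Of the 11 other protein-coding genes in the stretch of the Cpr65A cluster, 10 are RR-family cuticle genes too, the Lcp65A genes and Acp65Aa. The Cpr47E stretch holds 3 others, Or47a, CG13223 and TpnC47D, none of them in that list. The other clusters without one were Cpr49Aa to Cpr49Ad and Cpr49Ae to Cpr49Ah (4 genes each), Cpr64A (4), and those at 62B, 65E, 67F, 72E and 78C (3 each), 50C and 97E (2 each).

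The nearest optimal peaks outside the clusters mostly had the TSS of another gene as their nearest. Summits inside a stretch, such as that between Cpr65Eb and Cpr65Ec, were not taken. Of the 26 flanks of the 13 clusters, 16 had a nearest optimal summit that was within 500 bp of a TSS, and 1 had one with a Cpr TSS as its nearest, the Cpr76Ba peak. The 2 adjacent Cpr49A clusters share the summits on both sides, at ana3 and DUBAI, so the flanks hold 24 distinct summits, 14 of them within 500 bp of a TSS. Of all optimal peaks 45.9% were that close to one. The distance from the cluster's edge ran from 824 to 182739 bp, with a median of 21899 bp. To the left and right of the Cpr47E cluster they were at CG7737 (29027 bp away) and CG13220 (5690 bp). Beside the Cpr78C cluster they were at CG12974 (5912 bp) and CG11309 (3393 bp).

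**Figure D4:**
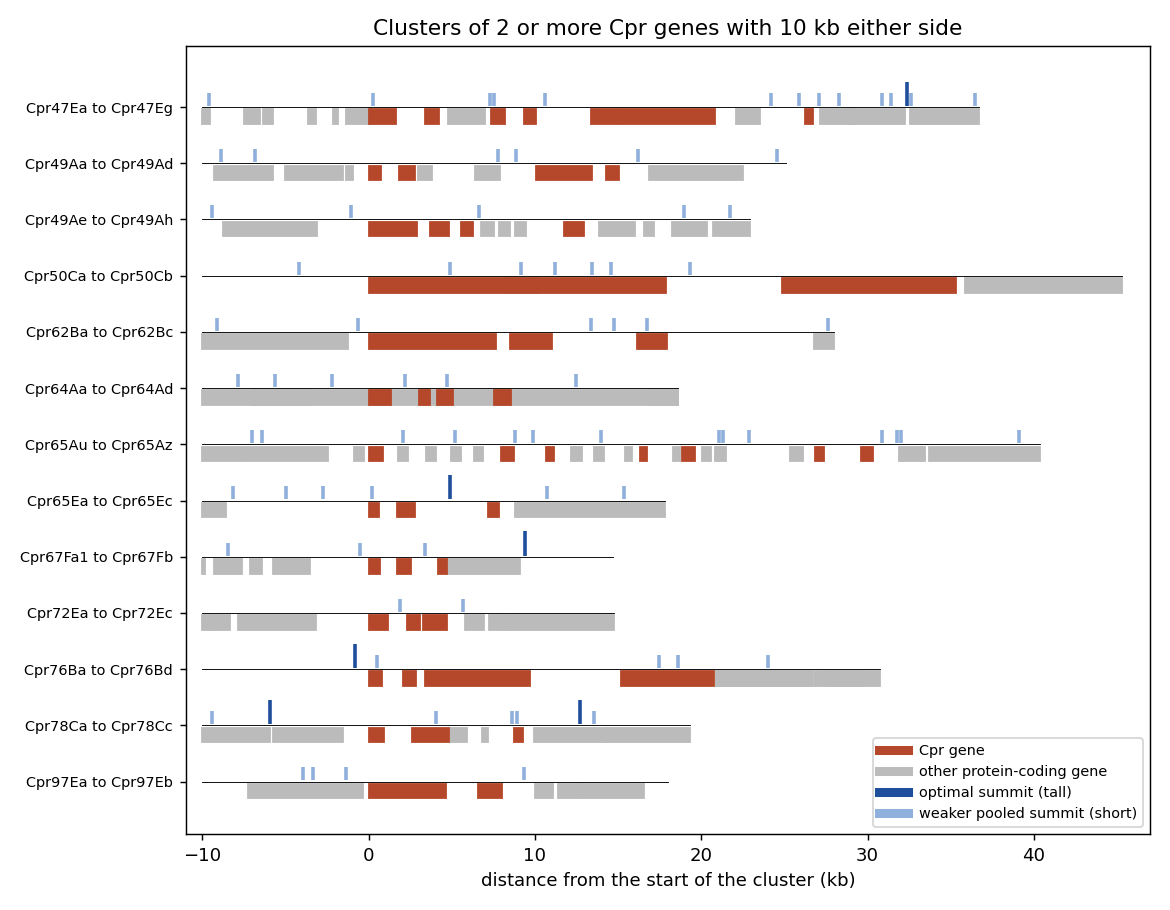
Map of the 13 clusters of at least 2 Cpr genes with 10 kb either side, by distance from the cluster's start (kb). Cpr genes are red boxes, other protein-coding genes grey boxes, tall dark ticks optimal summits and short pale ticks weaker pooled summits. Pale ticks are in or beside every cluster, and a dark tick lies inside the stretch of 1, Cpr65Ea to Cpr65Ec, where it is over 2 kb from each member.

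The weaker pooled peaks gave another picture. In all 49 of 70 Cpr genes (70.0%, 57.9 to 80.4) had a weaker summit in their span or within 2 kb, close to the 72.0% of all genes. Of the 67 members without an optimal peak 46 (68.7%) had one, against 67.3% of all such genes. By span, 23 of 33 Cpr genes under 1 kb (69.7%) had one, against 53.3% of all genes. The shares were 14 of 20 (70.0%) against 64.7% for 1 to 2 kb, 8 of 10 (80.0%) against 74.9% for 2 to 5 kb, and 4 of 7 (57.1%) against 91.3% for 5 kb and over. Each Cpr interval takes in the share of all genes except in the last class, where it ends at 90.1%. Each of the 13 clusters had a weaker peak, and so did 14 of the 21 single genes.

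There were 66 distinct weaker peaks near Cpr genes, making 78 pairs of gene and peak, and 10 of the peaks were near at least 2 Cpr genes. The pairs were divided evenly, with 26 in the span, 26 upstream and 26 downstream. Their signal was on the low side of the weaker list, with a median of 39.8 against 42.2 over all weaker peaks, and 42.4% of them were above the median of that list. Their −log10 q-value, as the authors gave it, had a median of 0.12 and a highest value of 2.07. Over all weaker peaks these were 0.17 and 2.63.

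The strongest weaker peak was at Cpr47Eg (chr2R:11275769-11276152, signal 84.3, rank 479 of the weaker peaks). It was 1996 bp past the 3' end, just inside the 2 kb limit, and 675 bp from the TSS of TpnC47D, a troponin C gene. Replicate 2 ranked it 1974, and replicates 1 and 3 ranked it 9689 and 10777. Next came Cpr62Ba (signal 62.9), whose peak was 645 bp past its 3' end, and Cpr50Ca (60.2), whose peak was 1416 bp past its 3' end. Among members without an optimal peak, the 10 with the strongest weaker peaks also include Cpr72Ea, Cpr72Eb and Cpr72Ec, which share a peak of 59.4, and Cpr97Ea (54.4), Cpr49Ad (52.8), Cpr56F (51.9) and Cpr51A (51.6). That at Cpr56F was 389 bp from the TSS of CkIIbeta2, a casein kinase II subunit gene.

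At their own TSS, within 500 bp, 12 of 70 Cpr genes (17.1%, 9.18 to 28.0) had a weaker summit, against 31.0% of all genes. These were Cpr23B, Cpr47Eg, Cpr51A, Cpr64Ac, Cpr65Av, Cpr65Ea, Cpr72Eb, Cpr73D, Cpr76Ba, Cpr78Cc, Cpr78E and Cpr92F. Their summits were close to the start in Cpr65Av (59 bp upstream, signal 37.9) and Cpr92F (65 bp upstream, signal 37.7). At Cpr73D the summit was 229 bp from that gene's TSS, but the nearest TSS was one of Ogdh, at 21 bp. Of the 66 peaks, 23 were within 500 bp of some TSS (34.8%, against 22% of all weaker peaks). Coding sequence held 12 (18.2%, against 20.5%), introns 8 (12.1%, against 34.0%) and the space between genes 21 (31.8%, against 21.0%). The 66 were taken for lying near genes that are mostly short, and peaks near other genes of like size were not classed. The part of that choice in these shares was not tested. For the optimal list the coding share over all peaks was 0.274%, so in this respect the weaker peaks near Cpr genes resemble the weaker list they come from. Among those in coding sequence, the strongest (signal 56.3) was in the span of Cpr50Ca, with the TSS of S-Lap7 as its nearest. Then came a peak downstream of Cpr97Ea (54.4), that in Cpr31A (52.5) and that in Cpr92A (49.6).

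A peak of signal 59.4 (chr3L:16364289-16364672) was shared by Cpr72Ea, Cpr72Eb and Cpr72Ec and lay 418 bp upstream of the TSS of Cpr72Eb. Its nearest TSS is thus a Cpr one. Replicates 1 and 2 ranked it 8008 and 3826, and the list of replicate 3 had no peak there.

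This Cpr72E peak is the strongest weaker one within 500 bp of a Cpr TSS, and 300 bases around its summit are shown with the GGAA core in capitals.
Cpr72Eb upstream peak, chr3L:16364331-16364630: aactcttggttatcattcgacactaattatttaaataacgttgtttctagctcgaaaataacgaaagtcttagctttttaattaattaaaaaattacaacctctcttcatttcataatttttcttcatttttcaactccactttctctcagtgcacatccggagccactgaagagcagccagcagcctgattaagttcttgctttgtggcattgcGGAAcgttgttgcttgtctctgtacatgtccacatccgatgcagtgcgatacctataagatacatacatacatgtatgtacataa

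Neither kind of peak was near 21 members, the rest of the 67 without an optimal peak. Of those 67, 68.7% had a weaker peak, close to the 67.3% of all genes without an optimal peak. The 21 include Cpr5C, Cpr11A, Cpr11B and Cpr12A, which are the 4 members on X, and Cpr47Eb, Cpr47Ee and Cpr47Ef of the Cpr47E cluster. Cpr65Ax1, a gene of 457 bp, and Cpr50Cb, of 10455 bp, were among them too. By arm, none of the 4 members on X had a weaker peak, where 68.0% of all genes did. All 5 members on 3R had one (74.0% of all genes there), as did 28 of 35 on 3L (74.7%), 12 of 21 on 2R (72.3%) and 4 of 5 on 2L (71.1%). The shares of all genes differ little between arms, and the members on each arm but 3L and 2R are few.

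The replicates gave similar counts among their strongest peaks. A top list is here the 3646 strongest peaks of one replicate. Those of replicates 1 and 3 were near 2 Cpr genes each, Cpr31A and Cpr76Ba, against 29.6% and 30.9% of all genes. That of replicate 2 was near those and Cpr73D, against 27.0%. The mean was 2.33 ± 0.577 genes (SD, n = 3), or 3.33% ± 0.825, beside 29.2% ± 1.99 of all genes. These libraries also made the optimal list, so they are no independent repeat of it.

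In longer lists the Cpr genes came in late and unevenly between replicates. Among the 10000 strongest peaks, replicates 1 and 2 had 22 Cpr genes each nearby (31.4%), against 54.0% and 48.6% of all genes. Replicate 3 had 8 (11.4%), against 54.5%. Those were Cpr31A, Cpr47Eg, Cpr51A, Cpr65Ea, Cpr65Eb, Cpr66Cb, Cpr73D and Cpr76Ba. In the whole relaxed lists it was 59 Cpr genes (84.3%) against 84.3% in replicate 1, 56 (80.0%) against 78.0% in replicate 2 and 41 (58.6%) against 77.6% in replicate 3. The weaker pooled peaks near Cpr genes followed these lists. Replicate 1 overlapped 50 of the 66 (75.8%), against 69.2% of all weaker peaks, and replicate 2 overlapped 44 (66.7%), against 61.5%. Replicate 3 overlapped 28 (42.4%), against 61.0%. All 3 replicates overlapped 11 of them (16.7%, against 23.6%). Of the 66, 98.5% overlapped no replicate's top list, against 87.3% of all weaker peaks.

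**Figure D5:**
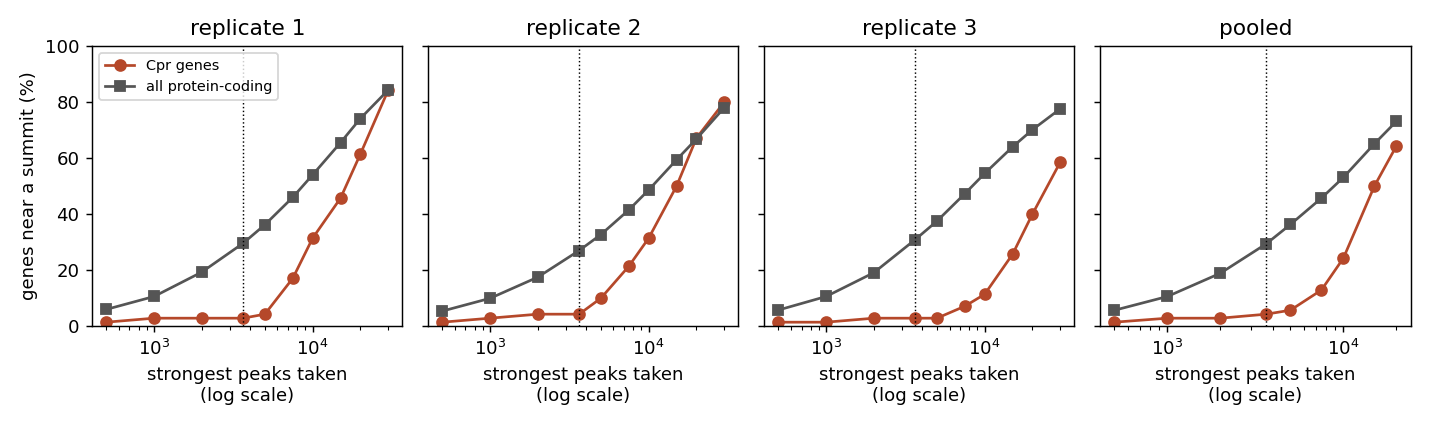
Percentage of genes near a summit (vertical axis) against the number of strongest peaks taken (log scale), for each replicate and the pooled list, with Cpr genes in red and all protein-coding genes in grey. The dotted line marks 3646 peaks. Cpr genes stay at 2 or 3 of 70 there and rise in the longer lists, to 84.3%, 80.0% and 58.6% in the relaxed lists of replicates 1, 2 and 3.

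Short genes and TATA promoters were more frequent among Cpr genes than among all genes, though not common to all members, whose spans ran from 457 to 18590 bp. The median number of exons in a gene's transcript with the most exons was 2, against 3 for all genes, with Cpr47Ef (17 exons) as the highest. The word TATAAA, the core of the TATA box that places transcription starts at many regulated genes, began 45 to 15 bases before the gene start on the gene's strand in 39 of 70 Cpr genes (55.7%). Among all protein-coding genes it did so in 9.08%. Anywhere from 250 bases before to 50 after the start, on both strands, it was in 70.0% of Cpr genes and 45.8% of all. The DRE word TATCGATA, which the factor DREF binds at many housekeeping promoters, was in 1 of 70 (1.43%) against 9.36%. The 4 ETS words were in 6 (8.57%), against 8.74% of all promoters, and GAGAGA was in 6 (8.57%), against 12.3%. The Grainyhead word AACCGGTT, the Zelda word CAGGTAG and the nuclear receptor word AAGGTCA were in no Cpr promoter, and in 0.753%, 1.64% and 2.11% of all. The E-box CAGCTG was in 8 (11.4%), against 17.7%. Median GC content of these promoters was 45.5%, against 38.0%.

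The promoters of Cpr31A and Cpr76Ba, from 250 bases before the gene start to 50 after it, are shown on the gene's strand with TATAAA (or TTTATA, its reverse complement) in capitals. They are the members with the stronger optimal peaks, and neither peak lay in these stretches.
Cpr31A promoter, chr2L:10053963-10054262, plus strand: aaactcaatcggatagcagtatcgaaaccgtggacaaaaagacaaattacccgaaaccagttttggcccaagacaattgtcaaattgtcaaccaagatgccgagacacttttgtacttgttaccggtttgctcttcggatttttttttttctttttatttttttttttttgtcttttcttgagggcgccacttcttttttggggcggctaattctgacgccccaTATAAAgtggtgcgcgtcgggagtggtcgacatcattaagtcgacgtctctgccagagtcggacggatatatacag
Cpr76Ba promoter, chr3L:19518283-19518582, minus strand: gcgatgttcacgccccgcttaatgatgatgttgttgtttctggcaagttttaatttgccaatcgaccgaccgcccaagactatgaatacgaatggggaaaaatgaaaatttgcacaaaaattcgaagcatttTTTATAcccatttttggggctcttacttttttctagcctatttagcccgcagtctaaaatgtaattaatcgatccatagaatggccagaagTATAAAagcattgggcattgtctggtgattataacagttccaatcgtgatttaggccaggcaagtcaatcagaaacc

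Promoter type and peaks moved together over the genome. Of all genes with TATAAA at that place, 13.3% were near an optimal peak, against 31.0% of those without, and their median span was 1137 bp against 2295 bp. Among Cpr genes it was 2 of 39 with the word (5.13%, Cpr31A and Cpr76Ba) and 1 of 31 without (3.23%, Cpr73D). The part of span or promoter type in the Cpr count was not tested.

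Other genes of the cuticle were counted in the same way, beside 29.4% of all genes near an optimal peak and 72.0% near a weaker one. Of 26 other RR-family genes (the Lcp, Ccp84A and Acp65A genes, Edg78E, Edg84A and Pcp), 1 was near an optimal peak (3.85%), and 12 were near a weaker one (46.2%). It was Pcp, a pupal cuticle protein gene nested in Gart, whose TSS lay 221 bp from the peak (signal 166.5). None of 25 Tweedle genes, another family of cuticle proteins, was near an optimal peak, and 18 were near a weaker one (72.0%). Of 9 peritrophin-type chitin-binding genes 1 was near an optimal peak, obst-I, with its peak 4 bp from the TSS of ecd (signal 95.2). Median spans of the RR-family, Tweedle and peritrophin lists were 710, 1088 and 1293 bp. Of all genes under 1 kb 14.7% were near an optimal peak and 53.3% near a weaker one. For all genes of 1 to 2 kb the shares were 23.3% and 64.7%.

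Genes that make or shape chitin and the apical matrix were counted next, beside the 29.4% of all genes. The chitin list held 25 genes, taken by name and not by enzyme activity. They were kkv, mmy, serp, verm, knk, rtv and the genes named Cht, Cda or Idgf. Of the 25 genes 3 were near an optimal peak (12%). Those were the chitinase genes Cht7 (strongest signal 162.5, 140 bp from its own TSS) and Cht11 (158.9, 45 bp from the TSS of CG4558), and rtv, needed for chitin order (104.1, 81 bp from its own TSS). Of 7 tanning and hair genes 1 was, Ddc, the dopa decarboxylase gene of cuticle hardening (133.2, 813 bp from its TSS). The last list held 9 genes, dpy, pio, dyl, tyn, nyo, neo, mey, f and m. Most of these, though not f, encode apical ZP-domain proteins, which tie cells to the matrix. Of the 9 genes 4 were near an optimal peak (44.4%), and 3 of their 4 strongest peaks had the TSS of a neighbour as the nearest. The peak at dpy (196.8) was 5276 bp from the TSS of HP6, that at nyo (151.1) was 5158 bp from the TSS of gammaCOP, and that at dyl (110.1) was 95 bp from the TSS of Fdx2. The peak at tyn (148.4) was 239 bp from its own TSS. The list had 5 optimal peaks, with 2 at nyo, and only each gene's strongest is described. By nearest TSS, 2 of the 9 genes had an optimal peak. The median span was 16618 bp for that list of 9 genes, and of all genes of 5 kb and over 45.8% were near an optimal peak. It was 3184 bp for the chitin list, and of all genes of 2 to 5 kb 30.9% were. No difference between the lists was tested.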

How the data were processed

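ChIP-seq peak lists on dm6 were used for 3 replicates of 1 group. Each replicate's relaxed list (30000, 29997 and 30000 peaks on the 6 arms used) comes from that replicate and a control, whereas the pooled and optimal lists draw on all 3 replicates, per the notes held with each file. The sources used here do not give the aligner, the peak caller, the IDR threshold or the handling of multiply mapping reads. Peaks carry a signal and a −log10 q-value as the authors deposited them; the signal has no stated scale and was compared only within a list. Depth per sample is unknown. Peak lists on dm3 were not used.

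Positions are 1-based. Genes, transcripts and TSSs came from Ensembl release 115 and sequence from RefSeq Release 6, both of the dm6 assembly. Every gene and peak end lay within the arms' lengths. Positions were classed in the order TSS (500 bp), coding, other exon, intron, between genes, using protein-coding genes. Overlap between lists needed 1 bp. No test was made, since there is 1 group; shares carry exact Clopper-Pearson intervals. The assignment steps were tested on simulated data. Named genes are all members near an optimal peak, the nearest TSSs, the 10 members without an optimal peak that have the strongest weaker peak, and up to 3 leading genes of each other list; members just outside 2 kb, with a peak at their TSS or with no peak, and dyl, were named after their values were seen. The members and lists were chosen with earlier results of these data known. Alternatives varied distance, assignment, threshold, replicate and cluster gap. Python 3.11.15, pandas 2.3.3, NumPy 2.4.6 and SciPy 1.17.1 were used.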

Additional observations from a re-analysis of the deposited data

How the results depend on the processing

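The count of 3 Cpr genes near an optimal peak depends on the distance allowed. It was 1 in the span alone and 1 within 500 bp (Cpr73D, with 10% and 21.9% of all genes), and 12 within 5 kb (with 41.9%). It was 0 for own TSSs within 500 bp and 5 when the peak interval stood for the summit, which adds Cpr65Eb and Cpr66Cb (30.3% of all genes). The other 8 alternatives gave 2 or 3, among them optimal peaks found in the top lists of all 3 replicates, where Cpr31A and Cpr76Ba are left, with 18.8% of all genes. The count of optimal peaks was 1 in span, 1 within 500 bp and 8 within 5 kb. The 46 members with a weaker peak alone became 18 in span, 23 within 500 bp, 35 within 1 kb and 51 within 5 kb. They became 28 with the weaker peaks above their median signal. Of all genes 52.1% were near such a stronger weaker peak, with or without an optimal one. The share of all genes with a weaker peak alone was not counted at these settings. The changes in the counts follow from the window or list taken. The mean over replicate top lists ran from 2.00 to 2.50 when each replicate was left out, was 1.67 with 1000 peaks and 17.3 with 10000, where replicate 3 gave 8 and the others 22 each. The clusters and single genes with an optimal peak stayed 3 with a gap of 5 or 20 kb or by cytological label. For optimal peaks and the strongest peaks of each replicate, the Cpr share was below that of all genes in each alternative where both were counted. For the stronger weaker peaks the counts differ in kind, so those shares were not compared. No paired analysis was possible because there is 1 group. The pooled and optimal lists could not be remade without a replicate from peak lists.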
